A study of Schizosaccharomyces pombe with 24 samples.

Results

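The 8 genes described here make or sense the mating pheromones of fission yeast, Schizosaccharomyces pombe. They are mfm1 (SPAPB8E5.05), mfm2 (SPAC513.03), mfm3 (SPBPJ4664.03), mam1 (SPBC25B2.02c), mam2 (SPAC11H11.04), map1 (SPAC11E3.06), map2 (SPCC1795.06) and map3 (SPAC3F10.10c). They were chosen by name, for their known roles, from the 6988 genes of the count table, with earlier results of these data known. All 8 had enough reads to be tested.

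Fission yeast has an M (minus, h-) and a P (plus, h+) mating type. M cells secrete M-factor, a short farnesylated peptide whose precursors are encoded by mfm1, mfm2 and mfm3, and P cells secrete P-factor, cut from the product of map2. Each type carries a receptor for the other's pheromone, and binding starts a mitogen-activated protein kinase cascade that leads to mating, normally under nitrogen starvation. Most of these genes need the transcription factor Ste11, and map1 encodes a transcription factor needed for the genes of P cells.

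PolyA+ RNA was sequenced from haploid cells growing exponentially in YES, a rich medium, at 30 °C, in 8 groups of 3 biological replicates. Each of the 7 mutant groups has 1 amino acid change in a protein of the cleavage and polyadenylation machinery. This machinery forms the 3′ ends of mRNAs by cleavage and poly(A) addition. The cft1-L249Q strain is h+ and carries no marker in the labels. The strains pfs2-E104A, pfs2-V180F, msi2-G252E, ysh1-L74F and pta1-T524M are h- and carry a kanMX cassette at a wild-type asp1 gene (asp1-WT::kanMX). The pla1-Y86L strain is h- with kanMX at the mutated gene (pla1-Y86L::kanMX), and the wild-type (WT) strain is h- with no marker. In cft1-L249Q the mutation and the h+ mating type cannot be told apart, and in the marked strains the mutation and the marker cannot be told apart.

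Library totals ran from 19.4 to 29.3 M counts, with a median of 25.46 M. Of the 6988 genes, 6287 passed the filter on low counts. Levels are given as CPM, a gene's reads divided by the scaled total of its library in M, and are not per length, so they are compared between strains and not between genes. A gene was called changed at an adjusted p under 0.05 in edgeR's quasi-likelihood test, and a positive log2 fold change means higher in the mutant. These are bulk samples, so fewer cells that express a gene and less RNA per cell cannot be told apart.

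The labelled mating types were checked against their marker genes. The summed level of 7 M-cell markers was 112 to 121 CPM in cft1-L249Q, 114 to 121 CPM in the h- strain pla1-Y86L and 168 to 193 CPM in WT. The summed level of 4 P-cell markers was 43.2 to 46.4 CPM in cft1-L249Q, 34.5 to 38.6 CPM in pla1-Y86L, 38.6 to 42.4 CPM in pfs2-V180F and 50.8 to 52.8 CPM in WT. The h+ strain thus lay below the h- WT strain and above the h- strains pla1-Y86L and pfs2-V180F in this sum. None of these 11 markers was at 0 in any library. The M genes of the mating-type locus, mat1-Mc and mat1-Mi, were listed at 0 reads in all 24 libraries, and its P genes were not analysed here. Among the markers only mfm2 and mam2 set cft1-L249Q apart from every other library, both by being low.

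Of the 3 M-factor precursor genes, mfm2 had the largest difference from WT. In cft1-L249Q it stood at 2.18, 1.65 and 1.74 CPM, from 58, 37 and 40 reads. In WT it stood at 46.5, 50.8 and 36.2 CPM, from 1116, 1276 and 965 reads. Every cft1-L249Q library was far below every library of the other 7 groups. The level was 23.7-fold lower in cft1-L249Q than in WT, with a log2 fold change of -4.57 ± 0.15 (SE) and an adjusted p of 8.9e-16. Against the mean of the 6 h- mutants the log2 difference was -3.77 ± 0.14 (adjusted p = 5.72e-15).

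The h- mutants also differed from WT in mfm2. Its level was 17.3, 19.8 and 16.0 CPM in msi2-G252E, 25.2, 22.4 and 25.2 CPM in pfs2-V180F, and 11.1, 12.3 and 11.1 CPM in pla1-Y86L, against the WT values above. None of these 9 libraries overlapped WT. The log2 fold changes were -1.33 ± 0.11 in msi2-G252E (adjusted p = 3.65e-10), -0.87 ± 0.10 in pfs2-V180F (adjusted p = 3.86e-07) and -1.96 ± 0.11 in pla1-Y86L (adjusted p = 9.99e-13), the last a 3.88-fold lower level. In pla1-Y86L mfm2 was also lower than in the mean of the other 5 h- mutants, by a log2 difference of -1.39 ± 0.10 (adjusted p = 1.53e-11).

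The other 3 h- mutants lay close to WT in mfm2. The levels were 45.2, 38.2 and 38.5 CPM in pfs2-E104A, 33.4, 39.7 and 33.1 CPM in pta1-T524M, and 37.8, 41.7 and 38.4 CPM in ysh1-L74F, and each group overlapped WT. The log2 fold change was -0.12 ± 0.10 in pfs2-E104A (95% interval -0.33 to 0.08, adjusted p = 0.357) and -0.18 ± 0.10 in ysh1-L74F (interval -0.38 to 0.03, adjusted p = 0.24), so neither was called. Both were called without WT replicate 3, at -0.25 (adjusted p = 0.0394) and -0.31 (adjusted p = 0.0338). In pta1-T524M mfm2 was called lower, at -0.33 ± 0.10 (adjusted p = 0.0121). That call was lost without pta1-T524M replicate 1 or 3 or WT replicate 1 or 2, where the value was -0.22 to -0.29, and with only the 2 groups in the fit (adjusted p = 0.0577). In order of mean level, WT, pfs2-E104A, ysh1-L74F and pta1-T524M overlapped their neighbours, and pfs2-V180F, msi2-G252E, pla1-Y86L and cft1-L249Q followed, each below and apart from the one before.

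**Figure D1:**
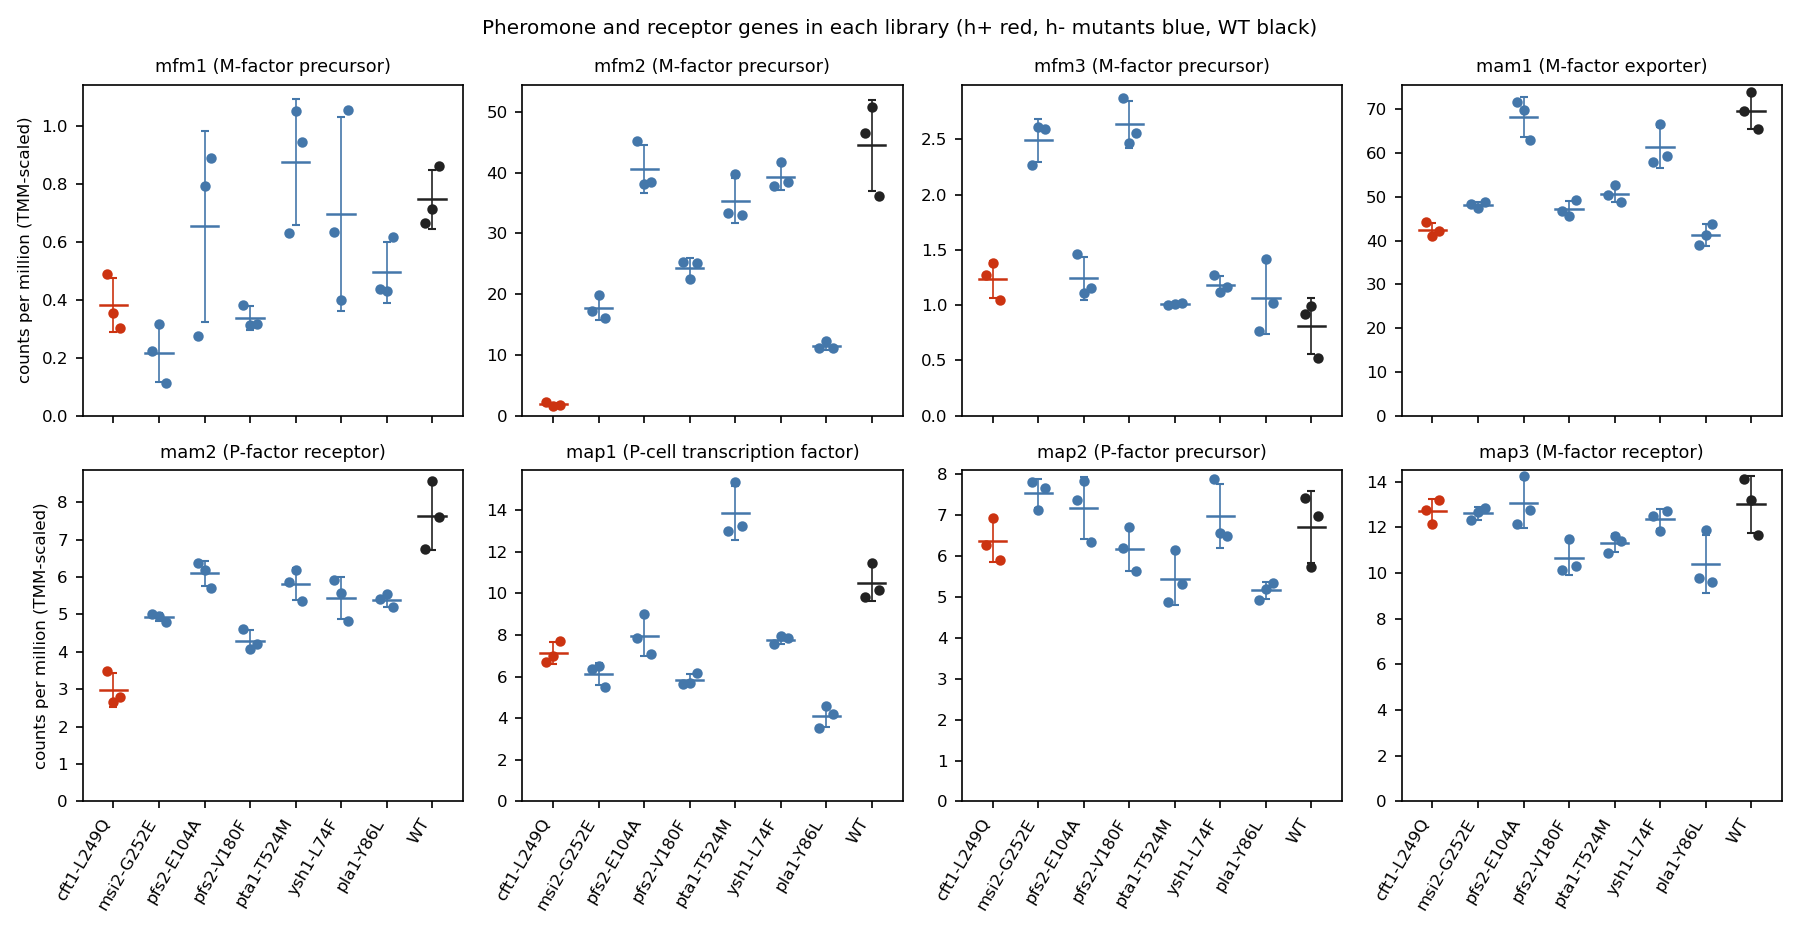
Level of each of the 8 genes in every library, in CPM on a linear axis. Each library is 1 point, with a bar at the group mean, the 7 mutants on the left and WT last. The 3 cft1-L249Q libraries lie at 1.65 to 2.18 CPM for mfm2, while pta1-T524M stands above all other groups for map1.

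The gene mfm3 moved the other way. It stood at 2.27, 2.62 and 2.60 CPM in msi2-G252E (61, 66 and 68 reads) and at 2.88, 2.47 and 2.56 CPM in pfs2-V180F (60, 71 and 65 reads). In WT it stood at 0.916, 0.995 and 0.525 CPM (22, 25 and 14 reads). All 6 of these mutant libraries were higher than every library of the other 6 groups. The level was 3.08-fold higher in msi2-G252E (log2 fold change 1.62 ± 0.20, adjusted p = 4.58e-07) and 3.24-fold higher in pfs2-V180F (1.70 ± 0.20, adjusted p = 4.5e-07). Against the mean of the other 5 h- mutants the log2 differences were 0.90 ± 0.14 in msi2-G252E (adjusted p = 6.24e-06) and 0.99 ± 0.14 in pfs2-V180F (adjusted p = 3.41e-06).

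Elsewhere mfm3 differed less from WT. It was called higher in cft1-L249Q, at 1.28, 1.38 and 1.04 CPM and a log2 fold change of 0.61 ± 0.23 (adjusted p = 0.0382), and in pfs2-E104A, at 1.47, 1.11 and 1.15 CPM and 0.64 ± 0.24 (adjusted p = 0.0407). Both groups lay above the 3 WT libraries, but neither call was stable. In cft1-L249Q it was lost without cft1-L249Q replicate 1 or 2 or WT replicate 3, at 0.37 to 0.59. In pfs2-E104A it was lost without any 1 of the pfs2-E104A libraries or WT replicate 3, at 0.40 to 0.71. The DESeq2 test, run on the same genes, called neither (adjusted p = 0.0618 and 0.0657). The changes in pta1-T524M (0.33 ± 0.24), ysh1-L74F (0.56 ± 0.23) and pla1-Y86L (0.38 ± 0.24) did not pass the test, although that in pla1-Y86L did without pla1-Y86L replicate 1 (0.58, adjusted p = 0.0445).

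Reads of mfm1 were few, 3 to 29 per library, which limits what can be seen. The level was 0.223, 0.317 and 0.114 CPM in msi2-G252E and 0.384, 0.313 and 0.315 CPM in pfs2-V180F, against 0.666, 0.716 and 0.862 CPM in WT. Both mutants lay below all WT libraries. The log2 fold changes were -1.77 ± 0.44 in msi2-G252E (adjusted p = 0.0016) and -1.16 ± 0.41 in pfs2-V180F (adjusted p = 0.023). The second was not called without pfs2-V180F replicate 2 or 3 or WT replicate 3, at -1.03 to -1.12. In msi2-G252E mfm1 was also lower than in the mean of the other 5 h- mutants, at -1.39 ± 0.38 (adjusted p = 0.00358). In cft1-L249Q it was at 0.488, 0.356 and 0.304 CPM, also below all WT libraries. Its log2 fold change there of -0.95 ± 0.40 was not called (adjusted p = 0.0595). The other 4 mutants had log2 fold changes between -0.59 and 0.21, none called. Of these, pla1-Y86L, at 0.439, 0.430 and 0.617 CPM, lay below all WT libraries, and pfs2-E104A, pta1-T524M and ysh1-L74F overlapped WT.

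The 3 genes encode the same mature peptide and are near-identical over part of their length, so their counts are uncertain to the extent that reads were split between them or dropped. How reads that map to several places were counted is not given in the sources used here. Summed over the 3 genes, the level was 3.47 ± 0.435 CPM in cft1-L249Q, 13.0 ± 0.952 CPM in pla1-Y86L, 20.4 ± 2.07 CPM in msi2-G252E, 27.3 ± 1.80 CPM in pfs2-V180F and 46.0 ± 7.66 CPM in WT (SD, n = 3 each). The share of these reads assigned to mfm3 was 32.4 to 40.8% in cft1-L249Q, 11.5 to 13.8% in msi2-G252E, 9.13 to 10.1% in pfs2-V180F, 6.25 to 10.1% in pla1-Y86L and 1.40 to 1.91% in WT. In the remaining mutants it was between 2.42 and 3.20%. The mfm3 share was thus higher in all 21 mutant libraries than in any WT library.

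**Figure D2:**
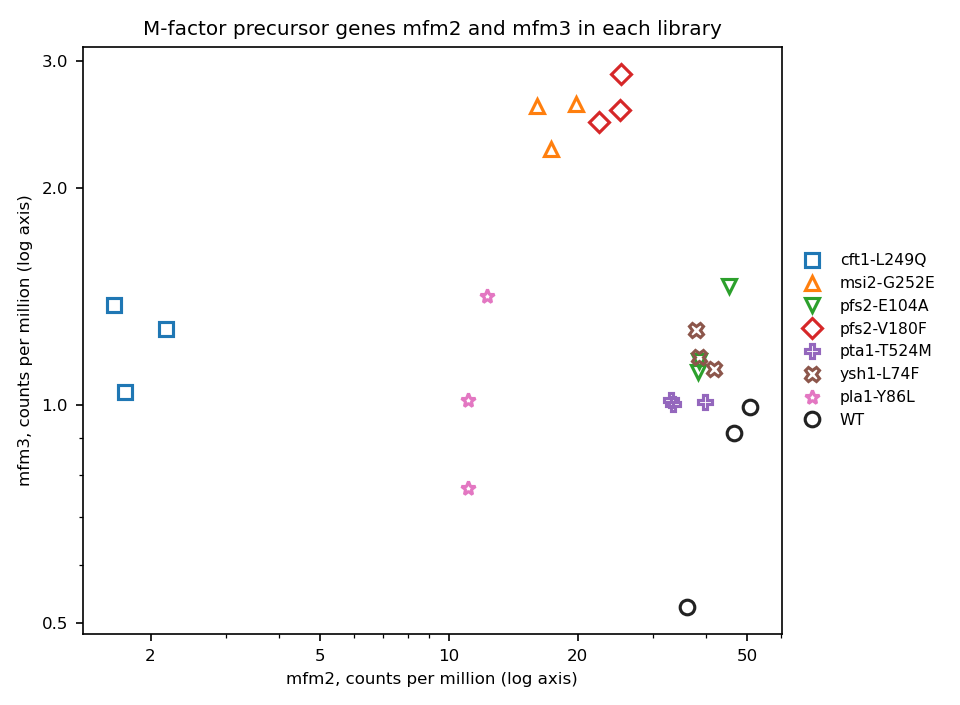
Level of mfm3 against that of mfm2 in each of the 24 libraries, both in CPM on log axes, with 1 symbol per group. The msi2-G252E and pfs2-V180F libraries combine a lower mfm2 with an mfm3 of 2.27 to 2.88 CPM, and the cft1-L249Q libraries lie apart at the lowest mfm2.

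M-factor leaves the cell through Mam1, a transporter of the ATP-binding cassette family. Its gene was at 44.2, 41.2 and 42.2 CPM in cft1-L249Q and at 38.9, 41.3 and 43.9 CPM in the h- strain pla1-Y86L, against 69.6, 73.9 and 65.5 CPM in WT. Neither mutant overlapped WT, and the 2 mutants overlapped each other. The log2 fold changes were -0.71 ± 0.06 in cft1-L249Q (adjusted p = 2.6e-09) and -0.75 ± 0.06 in pla1-Y86L (adjusted p = 2.42e-10). Against the mean of the 6 h- mutants, mam1 in cft1-L249Q was lower by -0.29 ± 0.05 (adjusted p = 4.15e-05).

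Expression of mam1 also fell in msi2-G252E (-0.53 ± 0.06, adjusted p = 6.33e-08), pfs2-V180F (-0.56 ± 0.06, adjusted p = 6.1e-08) and pta1-T524M (-0.46 ± 0.06, adjusted p = 1.74e-06). These 9 libraries held 45.5 to 52.8 CPM, below all WT libraries. In ysh1-L74F it was at 58.0, 66.7 and 59.3 CPM, which overlapped WT, and the small difference of -0.18 ± 0.06 (adjusted p = 0.0336) was lost without ysh1-L74F replicate 1 or 3 or WT replicate 1 or 2, at -0.14 to -0.18. In pfs2-E104A, at 71.6, 70.0 and 63.0 CPM, the log2 fold change of -0.03 ± 0.06 was not called (interval -0.15 to 0.09). In the ASM294v3 annotation mam1 overlaps hbs1 on the other strand, so without strand in the counting their reads cannot be told apart. The level of hbs1 was 152 CPM in pla1-Y86L and 84.7 CPM in WT on average, a log2 fold change of 0.85 (adjusted p = 4.75e-14) opposite in sign to that of mam1. It was also called higher in cft1-L249Q (0.30), msi2-G252E (0.15), pfs2-V180F (0.21) and pta1-T524M (0.18), where mam1 was lower.

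The P-factor receptor of M cells is Mam2, a G-protein-coupled receptor, and its gene was called lower in all 7 mutants. In cft1-L249Q it was at 3.49, 2.67 and 2.78 CPM (93, 60 and 64 reads), against 6.75, 8.55 and 7.61 CPM in WT (162, 215 and 203 reads). The cft1-L249Q libraries were below every other library of the series. The log2 fold change was -1.35 ± 0.12 against WT (adjusted p = 4.19e-09) and -0.82 ± 0.10 against the mean of the 6 h- mutants (adjusted p = 8.37e-07).

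Among the h- mutants mam2 stood lowest in pfs2-V180F, at 4.61, 4.07 and 4.22 CPM, followed by msi2-G252E, at 5.02, 4.96 and 4.81 CPM. The log2 fold changes were -0.84 ± 0.11 in pfs2-V180F (adjusted p = 1.62e-06) and -0.63 ± 0.11 in msi2-G252E (adjusted p = 2.45e-05). The 12 libraries of pfs2-E104A, pta1-T524M, ysh1-L74F and pla1-Y86L lay between 4.81 and 6.38 CPM, all below WT. Their log2 fold changes were -0.32 ± 0.11 in pfs2-E104A (adjusted p = 0.0225), -0.40 ± 0.10 in pta1-T524M (adjusted p = 0.00439), -0.49 ± 0.10 in ysh1-L74F (adjusted p = 0.0036) and -0.51 ± 0.11 in pla1-Y86L (adjusted p = 0.000222). The call in pfs2-E104A was lost without pfs2-E104A replicate 3 (-0.28, adjusted p = 0.0794) or WT replicate 2 (-0.24, adjusted p = 0.119).

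P-factor, the pheromone of P cells, is encoded by map2, which was at 6.27, 6.94 and 5.91 CPM in the h+ strain cft1-L249Q and at 7.41, 5.73 and 6.97 CPM in WT, with overlap. The log2 fold change of -0.07 ± 0.12 was not called, with a 95% interval of -0.31 to 0.17. The level was 4.94, 5.20 and 5.34 CPM in pla1-Y86L, below all WT libraries, with a log2 fold change of -0.38 ± 0.12 (adjusted p = 0.00762) that was not called without WT replicate 1 (-0.30, adjusted p = 0.0518). In pta1-T524M, at 4.87, 6.15 and 5.31 CPM, the log2 fold change of -0.30 ± 0.12 was just called (adjusted p = 0.0442). That call was lost without pta1-T524M replicate 1 or 3 or WT replicate 1 or 3, at -0.22 to -0.28. The other 4 mutants had log2 fold changes of -0.11 to 0.17 in map2, none called.

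The M-factor receptor of P cells is Map3, also a G-protein-coupled receptor. Its gene was at 12.8, 12.1 and 13.2 CPM in cft1-L249Q and at 14.1, 13.2 and 11.7 CPM in WT, a log2 fold change of -0.03 ± 0.08 (interval -0.21 to 0.14) that was not called. It fell in pfs2-V180F, at 10.1, 11.5 and 10.3 CPM (-0.28 ± 0.09, adjusted p = 0.00941), and in pla1-Y86L, at 9.76, 11.9 and 9.58 CPM (-0.32 ± 0.09, adjusted p = 0.0022). The pla1-Y86L libraries overlapped WT and the pfs2-V180F libraries did not. Without WT replicate 1 the pfs2-V180F call was lost (-0.21, adjusted p = 0.0707). The other 4 mutants had log2 fold changes of -0.20 to 0.00, none called. In pta1-T524M the value was called without WT replicate 3 (-0.27, adjusted p = 0.0283).

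Levels of map1, the transcription factor gene of P cells, differed from WT in all 7 mutants and not in 1 direction. In pta1-T524M it was at 13.0, 15.3 and 13.2 CPM (350, 364 and 364 reads), against 9.83, 11.5 and 10.2 CPM in WT (236, 288 and 271 reads). In pla1-Y86L it was at 3.55, 4.60 and 4.21 CPM (97, 107 and 116 reads). The pta1-T524M libraries were above, and the pla1-Y86L libraries below, every other library of the series. The log2 fold change was 0.40 ± 0.09 in pta1-T524M (adjusted p = 0.00193) and -1.35 ± 0.11 in pla1-Y86L (adjusted p = 3.87e-10).

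In the other 5 mutants map1 was lower than in WT. The log2 fold changes were -0.56 ± 0.10 in cft1-L249Q (adjusted p = 0.000135), -0.78 ± 0.10 in msi2-G252E (adjusted p = 1.06e-06), -0.40 ± 0.10 in pfs2-E104A (adjusted p = 0.00461), -0.84 ± 0.10 in pfs2-V180F (adjusted p = 7.82e-07) and -0.43 ± 0.10 in ysh1-L74F (adjusted p = 0.00631). All 15 libraries held 5.50 to 9.00 CPM, below the lowest WT library. The difference between mutants was tested too. Against the mean of the other 5 h- mutants, map1 was higher in pta1-T524M by 1.16 ± 0.07 (adjusted p = 1.02e-11) and lower in pla1-Y86L by -0.94 ± 0.09 (adjusted p = 4.6e-09). In the h+ strain cft1-L249Q it differed from the mean of the 6 h- mutants by 0.01 ± 0.08, which was not called (interval -0.16 to 0.17).

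**Figure D3:**
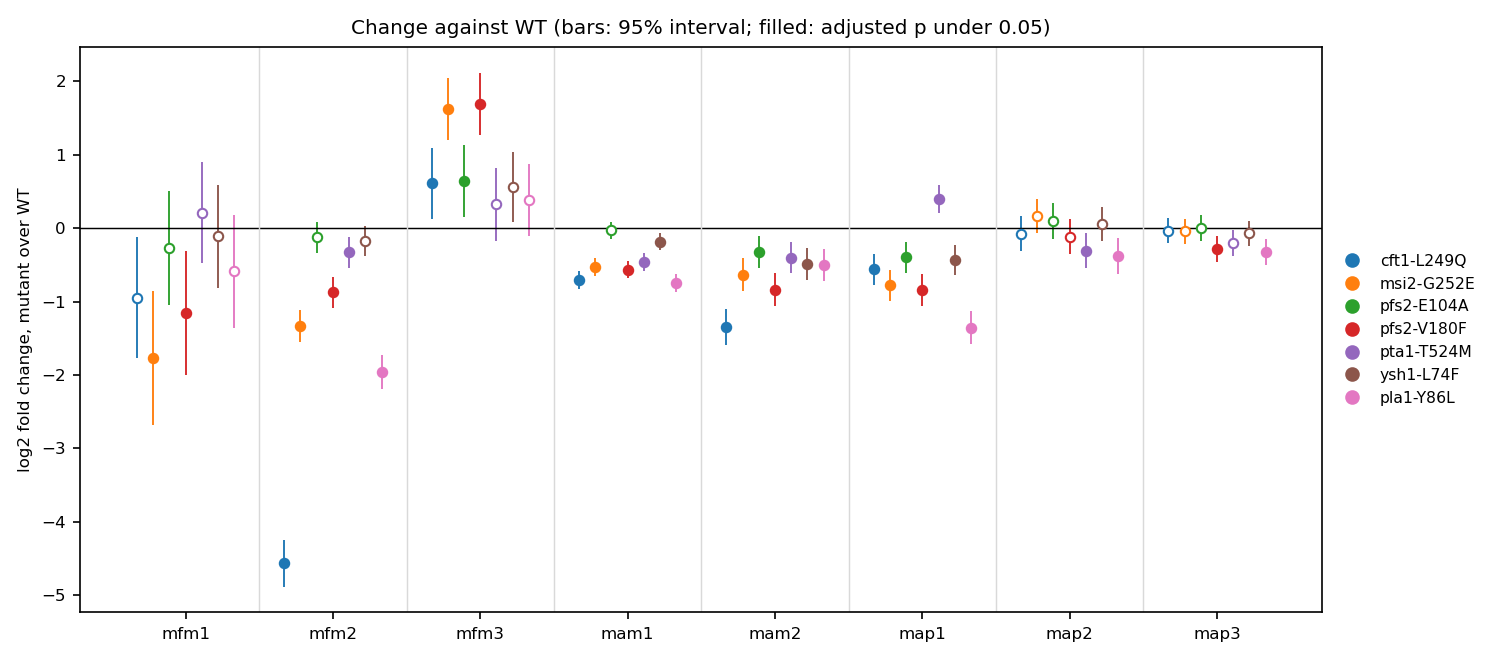
Log2 fold change of each of the 8 genes in each mutant against WT. Bars are 95% intervals derived from edgeR's F statistic and are not adjusted over genes. Filled symbols mark calls at an adjusted p under 0.05. The change of mfm2 is -4.57 in cft1-L249Q and -1.96 in pla1-Y86L, mfm3 lies above 0 in all 7 mutants, and mam2 lies below 0 in all 7.

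Counted by strain, most calls among the 8 genes were toward lower levels, while over all genes 47.1 to 51.4% of the calls against WT were. In cft1-L249Q 5 of the 8 were called, 1 higher and 4 lower, where 43.3% of all genes tested were called, and the median log2 fold change was -0.64 over the 8 and 0.00 over all genes. In msi2-G252E 6 were called, 1 higher and 5 lower, where 58.8% of all genes were called, with medians of -0.58 and 0.00. In pfs2-V180F 7 were called, 1 higher and 6 lower, where 48.1% of all genes were called, with medians of -0.70 and 0.00. In pla1-Y86L 6 were called, all lower, where 64.6% of all genes were called, with medians of -0.55 and 0.00. With this many genes called, a count of called genes alone says little, and the size of each change carries the description.

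The remaining mutants had fewer calls. In pta1-T524M 5 of the 8 were called, 1 higher and 4 lower, where 38.4% of all genes were called, and the median was -0.25 over the 8 and -0.01 over all genes. The count of 5 dropped to 3 without pta1-T524M replicate 1 or 3 or WT replicate 1. In pfs2-E104A 3 were called, 1 higher and 2 lower, where 34.2% of all genes were called, with medians of -0.08 and 0.00. That count dropped to 1 without pfs2-E104A replicate 3. In ysh1-L74F 3 were called, all lower, where 14.4% of all genes were called, with medians of -0.14 and 0.01. The 7 mutants share the WT libraries, so these counts are not independent of each other.

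The mutants were also compared with each other. In cft1-L249Q 3 of the 8 genes (mfm2, mam1 and mam2) were lower than in the mean of the 6 h- mutants and none was higher, where 35.8% of all genes were called. In pla1-Y86L 6 were lower than in the mean of the other 5 h- mutants and none was higher, where 70.8% of all genes were called. By the same measure 2 were higher and 4 lower in msi2-G252E, where 59.2% of all genes were called. In pfs2-V180F 1 was higher and 3 lower, with 46.5% of all genes called, and in pta1-T524M 3 were higher and 2 lower, with 51.3% called. In ysh1-L74F 2 were higher and none lower, with 38.6% of all genes called. In pfs2-E104A 5 were higher and none lower, with 49.5% called, a count that dropped to 2 without pfs2-E104A replicate 2. Of the 5, map1 (0.20, adjusted p = 0.049) lost its call in 15 of 18 fits with 1 library left out. It was also lost with DESeq2 scaling, with DESeq2's test, with no filter and with only the groups compared. The pfs2-E104A and pfs2-V180F strains change the same protein, and their values against the shared WT stand side by side as -0.12 and -0.87 for mfm2, 0.64 and 1.70 for mfm3, and -0.03 and -0.56 for mam1.

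Genes that act beside these 8 were taken from 5 lists of 40 genes, of which 35 were tested. In pla1-Y86L 7 of the 35 rose and 21 fell, in msi2-G252E 5 rose and 16 fell, in pfs2-V180F 8 rose and 14 fell, and in cft1-L249Q 7 rose and 13 fell. In pta1-T524M 5 rose and 12 fell, in pfs2-E104A 9 rose and 5 fell, and in ysh1-L74F 1 rose and 5 fell. The shares of all genes called are those given above for each mutant. The last 3 totals rest partly on single libraries. The total of 17 in pta1-T524M was 11 without pta1-T524M replicate 1, and that of 14 in pfs2-E104A was 9 without pfs2-E104A replicate 2 and 8 without WT replicate 1. The total of 6 in ysh1-L74F was 1 without ysh1-L74F replicate 1, 3 without ysh1-L74F replicate 2 and 2 without WT replicate 2.

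Ste11, the high-mobility-group transcription factor that drives mating genes, was called lower at its gene in all 7 mutants. The level of ste11 was 9.70, 12.8 and 12.5 CPM in msi2-G252E and 13.1, 15.0 and 10.3 CPM in pla1-Y86L, against 33.2, 41.2 and 32.9 CPM in WT. Neither mutant overlapped WT. The log2 fold changes were -1.62 ± 0.20 in msi2-G252E (adjusted p = 2.61e-07), -1.49 ± 0.19 in pla1-Y86L (adjusted p = 5.74e-07), -0.85 ± 0.19 in cft1-L249Q (adjusted p = 0.000839) and -0.73 ± 0.18 in pta1-T524M (adjusted p = 0.00335).

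In the other 3 mutants the change of ste11 was smaller and depended on single libraries. In pfs2-V180F it was -0.59 ± 0.18 (adjusted p = 0.0101), and the call was lost without pfs2-V180F replicate 2 or 3 or WT replicate 2, at -0.42 to -0.50. In ysh1-L74F it was -0.59 ± 0.18 (adjusted p = 0.0297), and the call was lost without ysh1-L74F replicate 1 or 2 or WT replicate 2, at -0.48 to -0.57. In pfs2-E104A it was -0.49 ± 0.18 (adjusted p = 0.042), and the call was lost without pfs2-E104A replicate 2 or 3 or WT replicate 1 or 2, at -0.38 to -0.54. DESeq2's test on all libraries did not call ste11 in pfs2-E104A either (-0.50, adjusted p = 0.0685). The h+ strain cft1-L249Q, which had the lowest mfm2, held 20.1, 20.3 and 19.4 CPM of ste11. Among the h- mutants, msi2-G252E and pla1-Y86L had the lowest means of both genes. These were 11.7 and 12.8 CPM for ste11 and 17.7 and 11.5 CPM for mfm2. A link between the levels of ste11 and mfm2 was not tested.

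Of the 12 genes of pheromone signalling tested, 1 rose and 9 fell in pla1-Y86L with a median log2 fold change of -0.43, 1 rose and 7 fell in msi2-G252E with a median of -0.22, and 1 rose and 7 fell in pfs2-V180F with a median of -0.18. None rose and 6 fell in cft1-L249Q, with a median of -0.14. In pta1-T524M 2 rose and 4 fell (median -0.02), in pfs2-E104A 3 rose and 3 fell (median -0.03), and in ysh1-L74F none rose and 3 fell (median -0.07). Over all genes tested 64.6% were called in pla1-Y86L, 58.8% in msi2-G252E, 48.1% in pfs2-V180F, 43.3% in cft1-L249Q, 38.4% in pta1-T524M, 34.2% in pfs2-E104A and 14.4% in ysh1-L74F, with medians of -0.01 to 0.01. The gene spk1, for the mitogen-activated protein kinase of the cascade, was at 17.7 ± 1.27 CPM in pla1-Y86L and 42.4 ± 5.07 CPM in WT (SD, n = 3 each), a log2 fold change of -1.25 ± 0.10 (adjusted p = 1.61e-10). It was called lower in all 7 mutants, although in pta1-T524M (-0.28) the call was lost without pta1-T524M replicate 1 or 3 or WT replicate 1 or 2, at -0.21 to -0.26, and in ysh1-L74F (-0.37) without ysh1-L74F replicate 1 or WT replicate 2, at -0.30 and -0.31.

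The gene ste4, for an adaptor of the kinase Byr2, was at 9.94 ± 1.02 CPM in pla1-Y86L and 29.7 ± 2.32 CPM in WT (SD, n = 3 each). Its log2 fold change was -1.58 ± 0.09 (adjusted p = 5.82e-13). It was called lower in 5 mutants, although in ysh1-L74F (-0.34) not without ysh1-L74F replicate 1 (-0.26). In pta1-T524M it was called higher, as map1 was, by 0.21 ± 0.08 (adjusted p = 0.0339), a call lost without pta1-T524M replicate 1 or 2 or WT replicate 1 or 3, at 0.16 to 0.23. In pfs2-E104A it was not called (-0.06 ± 0.08).

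Not all genes of the pathway were lower. The gene rep1, for a transcription factor that acts early in meiosis, rose in msi2-G252E, at 9.51 ± 0.463 CPM (log2 fold change 1.10 ± 0.15, adjusted p = 1.03e-06), and in pla1-Y86L, at 9.42 ± 1.58 CPM (1.09 ± 0.15, adjusted p = 9.09e-07), against 4.41 ± 0.753 CPM in WT (SD, n = 3 each). The M-cell gene sxa2, for a secreted carboxypeptidase that inactivates P-factor, rose by 0.77 ± 0.07 in msi2-G252E (adjusted p = 1.27e-09), opposite in sign to the M-cell genes mam1 and mam2 there. It was called higher in 5 mutants, of which pfs2-E104A (0.22) lost the call without pfs2-E104A replicate 2 or WT replicate 2, at 0.20 and 0.18, and pta1-T524M (0.21) without pta1-T524M replicate 1 or 3 or WT replicate 2, at 0.17 to 0.20. In the h+ strain cft1-L249Q sxa2 was not called, at 0.14 ± 0.07.

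Cell adhesion genes of the mating types changed little. The M-cell gene mam3 was lower in pla1-Y86L (-0.24 ± 0.06, adjusted p = 0.00243) and slightly higher in cft1-L249Q (0.16 ± 0.06, adjusted p = 0.0453). The call in cft1-L249Q was lost without cft1-L249Q replicate 1 or 2 or WT replicate 2 or 3, at 0.12 to 0.17. The P-cell gene map4 was lower in pla1-Y86L (-0.30 ± 0.08, adjusted p = 0.0016) and was not called in the h+ strain cft1-L249Q (-0.18 ± 0.08), where it passed the test as lower without cft1-L249Q replicate 2 (-0.23, adjusted p = 0.0411). It was also called lower in pfs2-V180F (-0.22) and ysh1-L74F (-0.24). The call in pfs2-V180F was lost without pfs2-V180F replicate 1 or 2 or WT replicate 1 or 3, at -0.15 to -0.21. The call in ysh1-L74F was lost without ysh1-L74F replicate 1 or 2 or any 1 of the WT libraries, at -0.18 to -0.27.

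M-factor is farnesylated and then methylated before export. The 7 pheromone processing genes tested cover both pheromones and are not limited to these steps. Of the 7, 3 fell in each of cft1-L249Q, msi2-G252E, pfs2-V180F and pla1-Y86L, and 1 rose in each. In pta1-T524M 1 rose and 2 fell, in pfs2-E104A 2 rose and none fell, and in ysh1-L74F 1 rose and none fell. The 2 that fell in pta1-T524M did not include cpp1 or mam4, described below. From 43.3 to 64.6% of all genes were called in the first 4 mutants, and from 14.4 to 38.4% in the other 3. The gene cpp1, for the β subunit of farnesyltransferase, was called higher in 6 mutants and lower in pla1-Y86L (-0.16 ± 0.03, adjusted p = 0.000161). Its largest change was 0.38 ± 0.03 in pfs2-V180F (adjusted p = 3.16e-09), and the smallest of the 6, 0.11 in ysh1-L74F, was lost without ysh1-L74F replicate 1 or 2 or WT replicate 1 or 2, at 0.09 to 0.11. The gene mam4, for the methyltransferase, fell in 4 mutants, most in msi2-G252E (-0.47 ± 0.08, adjusted p = 3.35e-05). Its fall in cft1-L249Q (-0.26) was not called without cft1-L249Q replicate 2 or 3, at -0.21 and -0.22.

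**Figure D4:**
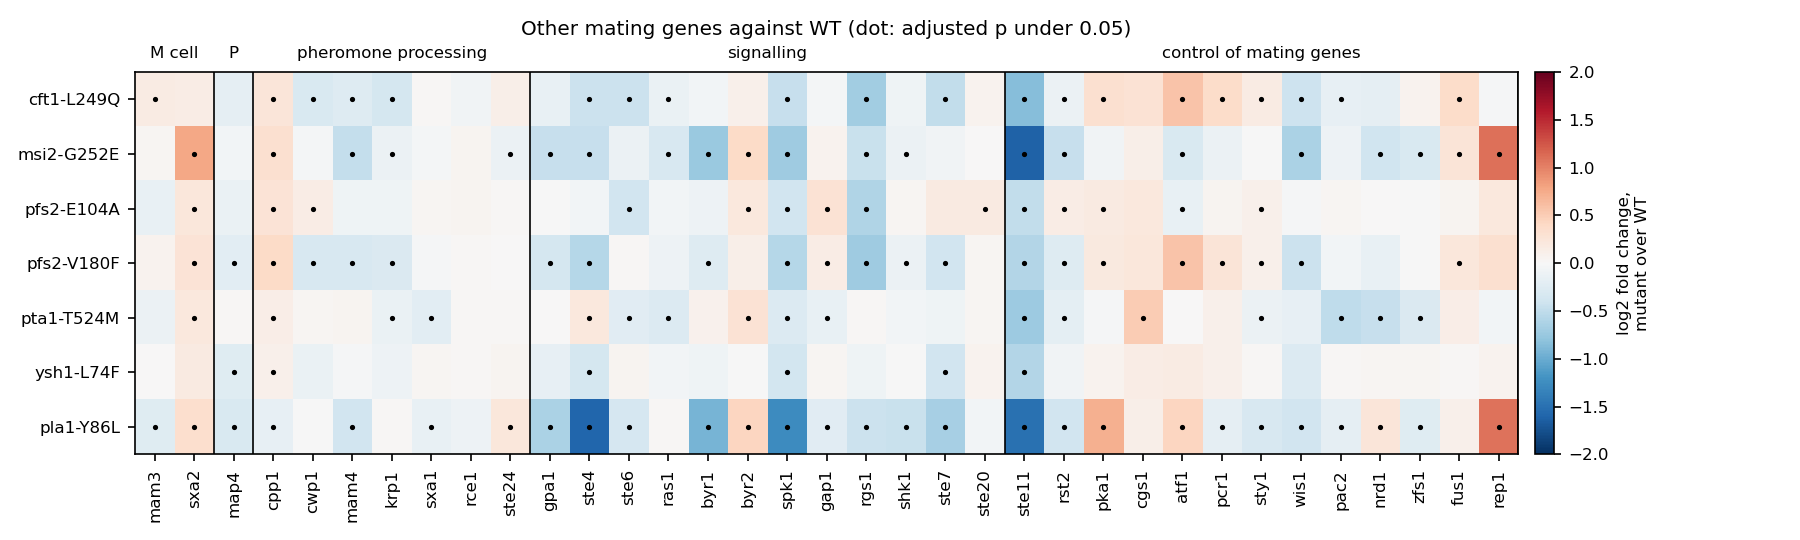
Log2 fold change against WT of the 35 tested genes of the 5 lists in each of the 7 mutants, with a dot where the gene was called. Colour runs from lower (blue) to higher (red) in the mutant, and the column of ste11 is below 0 in every mutant, from -0.49 to -1.62, while rep1 reaches 1.10 in msi2-G252E and 1.09 in pla1-Y86L.

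Likeness of pattern was described over the 8 group means of log2 CPM, which share the WT group and the same libraries for every gene, so no test was made. Among the 8 genes the Pearson correlation was 0.86 between mfm2 and mam2 and 0.80 between map2 and map3, the pheromone and receptor genes of P cells. It was -0.10 between mfm2 and mfm3 and -0.84 between mfm1 and mfm3, and from -0.44 to 0.73 for the other pairs. The value for mfm1 and mfm3 rests on few reads, 3 to 29 per library for mfm1 and 14 to 71 for mfm3. How reads were split between these near-identical genes is not known. The protein-coding genes outside the 8 whose pattern was most like each were sar1 (0.958) and rpl15 (0.941) for mfm2, amt3 (0.957) and cay1 (0.943) for mfm3, and mcm7 (0.976) and med18 (0.964) for mfm1. They were rpo41 (0.949) and sum3 (0.947) for mam1 and rps1001 (0.927) and rps001 (0.921) for mam2. For the genes of P cells they were tif471 (0.986) and lvs1 (0.979) for map1, mrp2 (0.987) and mug15 (0.967) for map2, and kms2 (0.927) and ckb1 (0.920) for map3. With 8 points per gene, picking the highest values among all tested protein-coding genes can by itself give high correlations.

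Besides mam1, 3 of the 8 genes overlap a gene on the other strand in the ASM294v3 annotation. The non-coding gene SPNCRNA.1381, which overlaps mfm3, was at 32.5 CPM in msi2-G252E, 30.0 CPM in pfs2-V180F and 26.9 CPM in WT on average. Its log2 fold changes were 0.27 in msi2-G252E (adjusted p = 0.000256) and 0.16 in pfs2-V180F (adjusted p = 0.0245). On the log2 scale these were smaller than the changes of mfm3. In CPM they were larger, since mfm3 was at 2.49, 2.64 and 0.812 CPM on average in the same groups. SPNCRNA.1381 was also called higher in pfs2-E104A (0.16, adjusted p = 0.0314) and lower in pla1-Y86L (-0.16, adjusted p = 0.0177). SPNCRNA.1067, which overlaps map1, rose by 0.69 in pfs2-V180F (adjusted p = 0.000684), and was also called higher in cft1-L249Q (0.41, adjusted p = 0.0371) and ysh1-L74F (0.48, adjusted p = 0.0348), each opposite in sign to map1. It was not called in pta1-T524M (0.20, adjusted p = 0.334) or pla1-Y86L (0.17, adjusted p = 0.372). Nor was it called in msi2-G252E (0.13, adjusted p = 0.491) or pfs2-E104A (-0.0004, adjusted p = 0.999). Among these mutants map1 was higher in pta1-T524M and lower in the others. The gene his6, which overlaps map3, fell by 0.15 in pfs2-V180F (adjusted p = 0.00695) and was not called in pla1-Y86L (-0.07, adjusted p = 0.159). It was also called lower in cft1-L249Q (-0.19), msi2-G252E (-0.20) and pfs2-E104A (-0.13), where map3 was not called. The part of these neighbours in the counts was not tested.

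The authors' deposited tables hold their own test of each mutant against WT. Over the 56 pairs of the 8 genes and 7 mutants, the call was the same in 53 and the sign in 55, and the log2 fold changes of the authors' deposited tables lay within 0.028 of those above. The 3 pairs that differed were map2 in pta1-T524M, with an adjusted p of 0.0501 in the authors' deposited table, and mfm3 in cft1-L249Q and pfs2-E104A, with adjusted p of 0.0644 and 0.0686 in the authors' deposited tables.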

How the data were processed

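The data are polyA+ RNA-seq of 24 libraries, 3 per strain. The authors' deposited files hold raw counts of reads by gene, and tables of each mutant against WT that hold, per the file headers, a mean signal (baseMean), log2 fold changes with standard errors, p-values with adjusted p-values, and a test statistic (a score, not used). Per the submitters' processing notes, the tools were HTSeq 0.10.0, HISAT2 2.1.0, DESeq2 and SAMtools, and the genome build was ASM294v2. The strand setting, the handling of reads with several matches and the annotation release are not given in the sources used here. The RefSeq annotation of ASM294v3 matched 6836 of the 6988 identifiers and served for names and neighbours only.

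The test was edgeR's quasi-likelihood F test (edgeR 4.0.16, limma 3.58.1, R 4.3.3). After filterByExpr (6287 genes) and TMM scaling, the 8 group means were estimated together from the 24 libraries, which left 16 residual degrees of freedom, and every mutant was set against WT. The h+ mutant was also tested against the mean of the 6 h- mutants and each h- mutant against the mean of the other 5. Adjustment was by Benjamini and Hochberg over the 6287 genes, with calls at 0.05. The SE of a log2 fold change was derived as its absolute value divided by the square root of the F statistic. The 95% intervals were built from that SE and a t quantile. The p-values rest on the spread of replicates that the labels call biological. The common biological coefficient of variation was 4.9%, and no replicate pair was within sampling noise (chi-square per degree of freedom of 2.6 to 23.8 over 24 pairs, genes with at least 20 reads). Alternatives were DESeq2 1.42.0 as test or scaling, no filter, only the groups compared, a replicate block, and each library left out. The scripts were tested on simulated data.

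The 8 genes and the 5 lists were chosen with earlier results of these data known. The text names the 8 genes, and list genes that were called with at least a 2-fold change in any mutant or had 1 of the 2 largest called changes of their list. For likeness it names the 2 protein-coding genes with the highest Pearson correlation of log2 CPM (prior count 2). The listed gene mcm1 and the P genes of mat1 were not analysed here. The smallest counts, those of mfm1 and mfm3, set the widest errors.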

Additional observations from a re-analysis of the deposited data

Results flagged for a closer look

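Differences between mutants of more than 1 on the log2 scale that passed edgeR's test of the difference itself were found for 4 pairs of gene and strain. The level of mfm2 in the h+ strain cft1-L249Q was below the mean of the 6 h- mutants by a log2 difference of -3.77 (adjusted p = 5.72e-15), lower in 3 of 3 libraries than any library of the h- mutants. In pla1-Y86L mfm2 was below the mean of the other 5 h- mutants by -1.39 (adjusted p = 1.53e-11), again in 3 of 3 libraries. The level of map1 in pta1-T524M was above the mean of the other 5 h- mutants by 1.16 (adjusted p = 1.02e-11), in 3 of 3 libraries. That of mfm1 in msi2-G252E was below the mean of the other 5 h- mutants by -1.39 (adjusted p = 0.00358), from 3 to 8 reads per library, and the msi2-G252E libraries overlapped those of other h- mutants. The mating type and the mutation of cft1-L249Q cannot be told apart.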

How the results depend on the processing

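No called value of the 8 genes or of the list genes turned its direction under any alternative. With only the groups compared in the fit, 1 of the 8 genes was called in pfs2-E104A against 3 with all groups, and 3 in pta1-T524M against 5. DESeq2 scaling, DESeq2's test and no filter on low counts kept every count within 1.5 times. With 1 library left out, the counts against WT ran from 1 to 3 in pfs2-E104A and from 3 to 5 in pta1-T524M, and from 2 to 6 in pfs2-E104A against the other h- mutants. The counts over the 35 list genes ran from 8 to 12 in pfs2-E104A, 11 to 16 in pta1-T524M and 1 to 7 in ysh1-L74F. Fewer libraries give larger errors, and other causes were not tested. Over the 8 genes and all comparisons, leaving out a library ended 53 calls and added 15, and the other alternatives ended 12 and added 1.

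Correlations between the deviations of same-numbered libraries ran from -0.103 to 0.211, and in no mutant were all 3 over 0.1, the limit set for pairing, so the replicate numbers were not taken to pair the samples. With the replicate block the counts of the 8 genes against WT were unchanged, at 7 in pfs2-V180F, 6 in msi2-G252E and pla1-Y86L, 5 in cft1-L249Q and pta1-T524M, and 3 in pfs2-E104A and ysh1-L74F, and no call of these genes against WT was lost or gained. The block gave 28 list genes in pla1-Y86L, 22 each in cft1-L249Q, msi2-G252E and pfs2-V180F, 17 in pta1-T524M, 15 in pfs2-E104A and 7 in ysh1-L74F.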
